A study of Mus musculus with 7 samples.

Results

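The mRNA levels of 10 genes were followed in sorted pancreatic β-cells of lean mice, of diabetic mice, and of diabetic mice whose β-cells lack Aldh1a3. The genes are Trpm5, Npr1 and Ucn3, the relatives Trpm2, Trpm3, Trpm4, Trpm7 and Npr2, and Tmem215 and Fam151a, 10 of the 35013 gene symbols in the count table. Trpm5, Npr1 and Ucn3 were picked because they were seen in these libraries to be low in db/db and higher in the knockout, and Tmem215 and Fam151a because they were among the largest differences in the same comparison. For these 5 genes the levels and fold changes given below are therefore a description, with no test. The 5 relatives were added for contrast, and they keep the test made over all genes.

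The study asked what changes in the β-cells of diabetic mice when Aldh1a3, a retinaldehyde dehydrogenase induced in failing β-cells, is removed. The libraries came from 2 β-Aldh1a3 KO_db/db mice, 2 db/db controls and 3 lean db/+ controls, with 1 library per mouse. All 7 carried the RIP-Cre (Herr) transgene, in which the rat insulin promoter drives Cre in β-cells, and the tdTomato reporter allele in the form tdT fl/+. The knockout was Aldh1a3 fl/fl on Lepr db/db. The diabetic control was Aldh1a3 fl/+ on the same Lepr db/db background, and the lean control joined Aldh1a3 fl/+ with Lepr db/+, so that every mouse had at least 1 floxed Aldh1a3 allele and none was a wild type. The db allele removes the signalling form of the leptin receptor, and mice with 2 copies become obese and diabetic. Mice were fasted before islet isolation, the study used both sexes at 16 to 20 weeks of age unless a legend says otherwise, and the exact age and the sex behind each library and the gate of this sort are not given in the sources used here.

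Total counts ran from 27496645 to 35852785 per library. Levels are in CPM, counts normalised to the total of each library and adjusted by the TMM method of edgeR, on which 3 counts, taken as the detection floor, equal 0.0717 to 0.123 CPM. Aldh1a3 itself stood at 4.97 and 7.89 CPM in KO_db/db, 98.5 and 194 CPM in db/db, and 0.0730 to 0.589 CPM in db/+, so that of the 4 diabetic libraries those labelled as knockout were the low ones. The summed level of 10 β-cell markers, insulin genes included, was 395600 to 443300 CPM in db/+, 202200 to 225600 CPM in db/db and 225900 to 298200 CPM in KO_db/db. As a share of raw counts they took 34.4% to 38.7% in db/+, 27.1% and 24.9% in db/db, and 26.4% and 26% in KO_db/db. In db/db versus db/+ 9 of the 10 fell, where 18.0% of all genes tested fell. In KO_db/db versus db/+ 7 of the 10 fell, beside 17.9% of all genes. None passed in KO_db/db versus db/db, where 0.319% of all genes did. A list of 38 acinar genes summed to 194100 CPM in KO_db/db mouse 1 and 16910 CPM in KO_db/db mouse 2, against 294.6 to 462.6 CPM in db/db and 80.98 to 375.2 CPM in db/+. These are bulk samples, so fewer cells of a type and less RNA per cell cannot be told apart.

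TRPM channels are cation channels of the transient receptor potential family. TRPM5 and TRPM4 open when cytosolic calcium rises and pass monovalent cations that depolarise the cell, and TRPM5, known from taste cells, also supports glucose-stimulated insulin secretion in mice. TRPM2 is opened by ADP-ribose, TRPM3 by neurosteroids such as pregnenolone sulfate, and TRPM7 is a divalent cation channel fused to a kinase. Npr1 and Npr2 encode receptor guanylyl cyclases that make cyclic GMP, the first for atrial and B-type and the second for C-type natriuretic peptide. Ucn3 encodes urocortin 3, a peptide of the corticotropin-releasing factor family that mature mouse β-cells release with insulin and that acts on the type 2 receptor of δ-cells to raise somatostatin. Tmem215 and Fam151a encode membrane proteins whose roles in β-cells are little known.

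On the mouse genome build GRCm38, Trpm5 (ENSMUSG00000009246.14) runs from 143069153 to 143094642 on the minus strand of chromosome 7, Npr1 (ENSMUSG00000027931.12) from 90450591 to 90465866 on the minus strand of chromosome 3, and Ucn3 (ENSMUSG00000044988.7) from 3940688 to 3945349 on the minus strand of chromosome 13. The 250 bases before the RefSeq start (GRCm38.p6) of these 3 genes are shown 5′ to 3′, because they had the pattern of interest in common and lie next to transcripts whose levels differ between the groups. Capitals mark every match, on either strand, to any of 7 short motifs: CANNTG (E-box), CACGTG (a form of the E-box), TAATTA (homeodomain core), TGCTGA (Maf half-site), AGGTCA (nuclear receptor half-site), CCAAT and TATAAA.
Trpm5 (chr7:143094643-143094892, minus strand): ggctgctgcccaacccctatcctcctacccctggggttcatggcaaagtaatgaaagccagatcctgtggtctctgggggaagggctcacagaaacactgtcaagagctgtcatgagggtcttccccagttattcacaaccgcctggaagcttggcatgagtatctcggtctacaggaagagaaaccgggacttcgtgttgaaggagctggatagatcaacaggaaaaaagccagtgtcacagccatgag
Npr1 (chr3:90465867-90466116, minus strand): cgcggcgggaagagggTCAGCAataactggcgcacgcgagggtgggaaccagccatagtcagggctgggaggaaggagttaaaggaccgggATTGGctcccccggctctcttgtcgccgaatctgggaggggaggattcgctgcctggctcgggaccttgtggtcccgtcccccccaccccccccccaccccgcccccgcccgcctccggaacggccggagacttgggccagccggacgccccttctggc
Ucn3 (chr13:3945350-3945599, minus strand): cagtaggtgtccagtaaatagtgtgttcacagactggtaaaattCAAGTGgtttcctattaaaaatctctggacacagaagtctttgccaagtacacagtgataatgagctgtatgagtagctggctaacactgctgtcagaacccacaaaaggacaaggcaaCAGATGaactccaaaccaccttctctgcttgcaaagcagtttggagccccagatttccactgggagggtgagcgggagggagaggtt

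The 3 windows had little in common. Their GC content was 52.8% for Trpm5, 70.4% for Npr1 and 46.4% for Ucn3, beside a median of 52.4% over 32851 windows of the same length. Npr1 held 21 CpG pairs, Trpm5 held 4 and Ucn3 held 1, beside a median of 6, and 83.7%, 37.8% and 7.87% of windows held fewer. No motif matched in the Trpm5 window. Npr1 held TGCTGA 234 bases before the start (found in 16.1% of all windows) and CCAAT 159 bases before it (33.8%). Ucn3 held CANNTG 206 and 87 bases before the start (66.2%). A window was present for 9 of the 10 genes, and the nuclear receptor half-site AGGTCA, which 14.0% of all windows hold, matched in none of the 5 genes picked on their levels and in 1 of the 4 relatives, Trpm3, in 1 of its alternative windows. A match is a run of letters, and no binding was measured.

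Trpm5 had the widest range of the 10 genes. It stood at 138, 115 and 126 CPM in the db/+ libraries, at 2.20 and 1.43 CPM in those of db/db, and at 31.8 and 20.03 CPM in the KO_db/db libraries. No library of one group reached into another, and both knockout libraries lay between the diabetic and the lean ones. Such separation was common over all genes tested. Without overlap, 30.7% lay lower in db/db versus db/+, 32.5% lower in KO_db/db versus db/+, and 28.4% higher in KO_db/db versus db/db. The group means were 127 ± 11.7 CPM (SD, n = 3) in db/+, 1.82 ± 0.543 CPM (SD, n = 2) in db/db and 25.9 ± 8.31 CPM (SD, n = 2) in KO_db/db, that is 1.44% and 20.5% of the lean mean in db/db and in KO_db/db. The log2 fold change was -6.14 (standard error 0.23) in db/db versus db/+, 3.83 (0.35) in KO_db/db versus db/db and -2.29 (0.21) in KO_db/db versus db/+. Without KO_db/db mouse 1, whose library held most acinar RNA, the difference from db/db was 3.47 on the log2 scale.

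**Figure D1:**
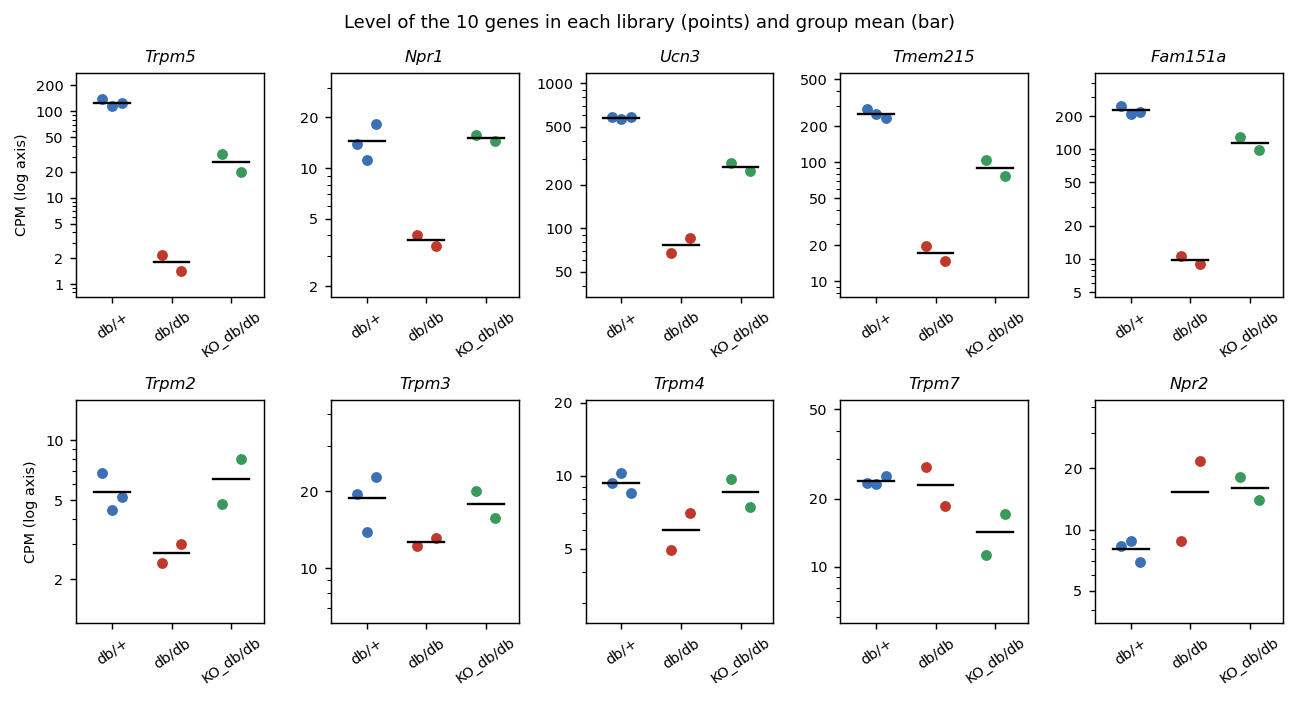
Level of each of the 10 genes in CPM (log axis, 1 panel per gene), with a point for each library of db/+ (3), db/db (2) and KO_db/db (2) and a bar at the group mean. In the top row the db/db libraries lie below all others for each of the 5 genes picked on their levels, while in the bottom row Trpm7 and Npr2 show other orders. Of all genes that passed the filter, 14.7% had db/db below all others.

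The relatives of Trpm5 moved far less. Trpm2, the ADP-ribose-gated channel, stood at 6.84, 4.45 and 5.16 CPM in db/+, 2.41 and 2.99 CPM in db/db, and 4.76 and 8.01 CPM in KO_db/db. Trpm4, the closest relative of Trpm5 in function, stood at 9.38, 10.3 and 8.45 CPM in db/+, 4.96 and 7.03 CPM in db/db, and 9.69 and 7.45 CPM in KO_db/db. Both were lowest in the 2 db/db libraries, which lay below all 3 lean ones as did 30.7% of genes tested (32.6% lay above), and in both the KO_db/db libraries overlapped the lean ones. In db/db versus db/+, the log2 level of Trpm2 fell by 1.03 (standard error 0.28, adjusted p = 0.0265) and Trpm4 by 0.65 (0.21, adjusted p = 0.0496), in the quasi-likelihood test of edgeR, adjusted after Benjamini and Hochberg over all genes, while 18.0% of the 13406 genes tested fell in that comparison and 37.8% changed. In the refits with 1 library left out, a group left with 1 library was taken to vary like the other. Both calls were fragile. That of Trpm2 was lost without db/db mouse 1 (adjusted p = 0.0982) or without db/+ mouse 1 (0.0907), and that of Trpm4 without db/db mouse 1 (0.160) or without db/+ mouse 1, 2 or 3 (0.114, 0.138 and 0.0662), and with another scaling (RLE, 0.0529) or all 7 libraries in 1 fit (0.0520).

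Trpm3, the steroid-sensitive channel, had the same order with smaller steps. It stood at 19.6, 13.9 and 22.9 CPM in db/+, 12.2 and 13.2 CPM in db/db, and 20.04 and 15.8 CPM in KO_db/db, and the change in db/db versus db/+ was -0.57 (standard error 0.23, adjusted p = 0.0875). Without db/+ mouse 2, the lean library nearest to db/db, its adjusted p was 0.0283. Trpm7, the channel kinase, had another order. It stood at 23.5, 23.3 and 25.2 CPM in db/+, 27.5 and 18.5 CPM in db/db, and 11.3 and 17.2 CPM in KO_db/db, so that the knockout libraries were the lowest, below all lean ones as were 32.5% of genes tested (31.7% lay above), and the diabetic ones spread to both sides of the lean ones. Trpm7 did not pass the test in db/db versus db/+ (log2 fold change -0.08, standard error 0.18, adjusted p = 0.768), and it fell by 0.74 in KO_db/db versus db/+ (0.19, adjusted p = 0.0204), where 17.9% of the 13228 genes tested fell and 38.4% changed. That call was lost without KO_db/db mouse 1 (adjusted p = 0.0506), the lower of the pair, and without db/+ mouse 1 (0.0532) or 2 (0.0529).

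None of the 4 TRPM relatives passed the edgeR test of KO_db/db versus db/db, in which 0.319% of the 13486 genes tested passed, 0.126% higher and 0.193% lower. The log2 fold changes were 1.24 for Trpm2 (standard error 0.35, adjusted p = 0.158), 0.49 for Trpm3 (0.19, 0.229), 0.51 for Trpm4 (0.28, 0.347) and -0.69 for Trpm7 (0.29, 0.260). The knockout libraries lay above both db/db libraries for Trpm2, Trpm3 and Trpm4 and below both for Trpm7, but groups of 2 and 2 failed to overlap in the same way for 28.4% (higher) and 29.1% (lower) of all genes tested. In DESeq2, Trpm2 was called at an adjusted p of 0.0471, and in edgeR with no filter on low counts at 0.0301. Against db/+, Trpm2 (0.24, adjusted p = 0.551), Trpm3 (-0.06, 0.843) and Trpm4 (-0.13, 0.612) in KO_db/db did not pass the test. The remaining members of the family, Trpm1, Trpm6 and Trpm8, had at most 10 counts in any library and entered no fit.

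**Figure D2:**
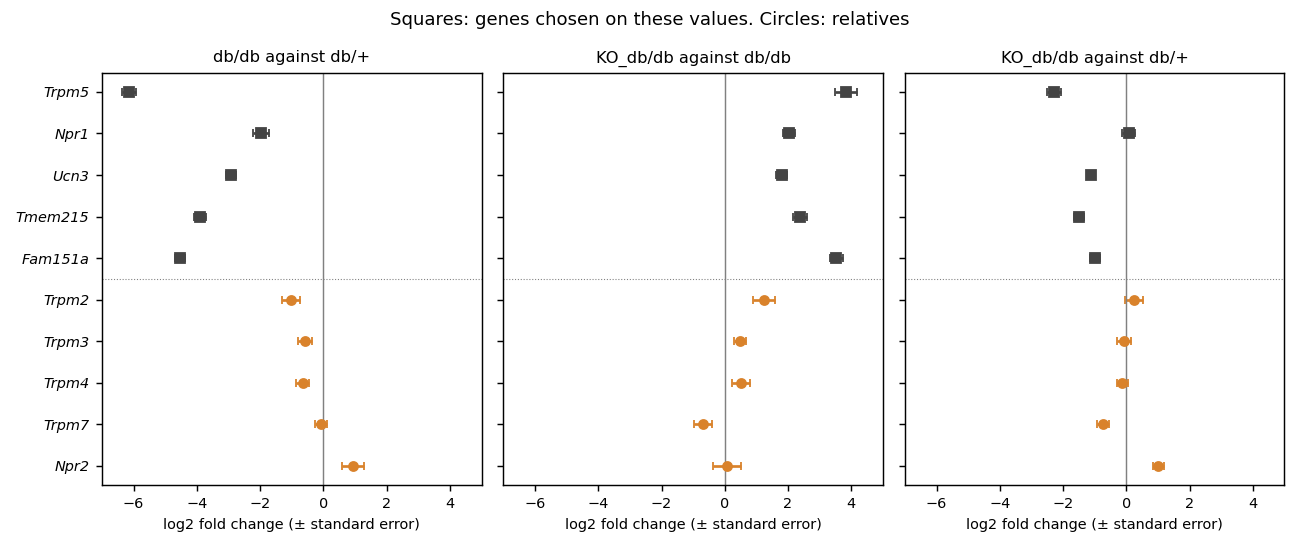
Log2 fold change with its standard error for each of the 10 genes (rows) in the 3 comparisons (panels), with squares for the 5 genes picked on these values and circles for the 5 relatives. The squares lie at -1.97 or lower in db/db versus db/+ and at 1.79 or higher in KO_db/db versus db/db, whereas the relatives stay within 1.24 of 0 in all 3 panels.

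Divided by the length of the longest annotated transcript, which allows genes to be compared with each other, the make-up of the TRPM transcripts differed between the groups. Trpm5 took 78.9% to 80.6% of the summed CPM per kb of the 5 measured TRPM genes in db/+, 7.73% and 5.71% in db/db, and 55.6% and 42.5% in KO_db/db. Trpm7 took 7.96% to 9.29% in db/+, 56.1% and 42.7% in db/db, and 11.4% and 21.2% in KO_db/db. Trpm5 was thus the leading TRPM transcript in the lean and the knockout libraries and Trpm7 in the diabetic ones. Within a library, where scaling plays no part, the level per kb of Trpm5 was 11.5 to 15.3 times that of Trpm4 in db/+, 0.456 and 0.210 times in db/db, and 3.37 and 2.76 times in KO_db/db. As Trpm5 was chosen for this pattern, these shares are a description.

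**Figure D3:**
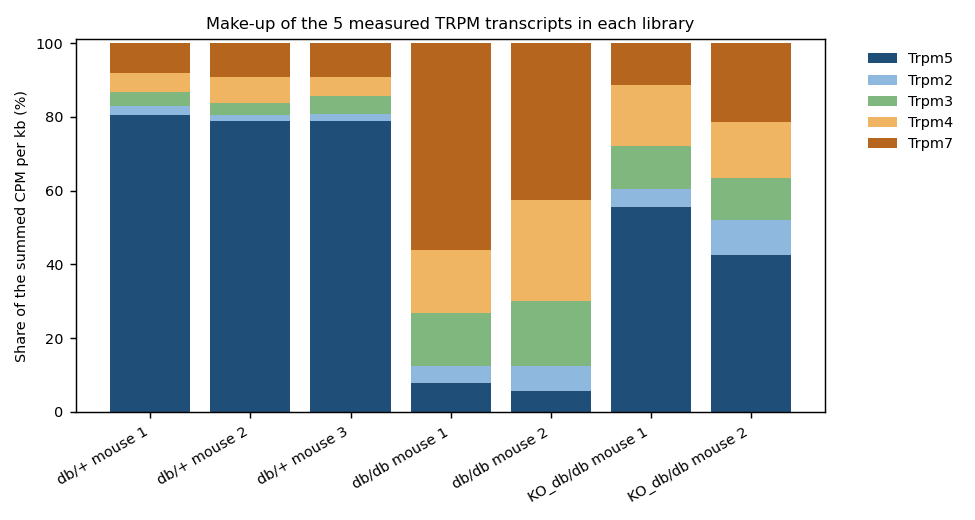
Share (%) of each of 5 TRPM genes in their summed CPM per kb, as stacked bars with 1 bar per library. Trpm5 (dark blue) fills about the same part of the 3 db/+ bars, 78.9% to 80.6%, and at most 7.73% of a db/db bar, where Trpm7 (brown) is the largest part.

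Among 20 genes of the other TRP families, 7 were abundant enough to be tested in db/db versus db/+, and 2 rose and 1 fell. Of all genes tested there, 19.9% rose and 18.0% fell. Trpc4, a receptor-operated channel, rose by 1.22 (standard error 0.28, adjusted p = 0.0153) from 8.04 ± 2.71 CPM (SD, n = 3) in db/+ to 18.9 ± 1.58 CPM (SD, n = 2) in db/db, and Pkd2, the polycystin-2 channel of cilia and endoplasmic reticulum, rose by 0.45 (0.10, 0.0159). The call of Trpc4 was lost without db/db mouse 2 (adjusted p = 0.0609), and that of Pkd2 without db/+ mouse 1 (0.0619) or 2 (0.0672). Mcoln3, an endolysosomal cation channel, had 170, 217 and 90 counts in the db/+ libraries, 0 in both of db/db, and 6 and 9 in KO_db/db. Set against the floor of 3 counts in each library, Mcoln3 was at least 75.1-fold lower in db/db than in db/+ (adjusted p = 0.00140 from edgeR), and the log2 fold change in KO_db/db versus db/+ was -4.67 (0.55, adjusted p = 0.00179). Both calls of Mcoln3 held in every refit tried at the 0.05 threshold. The knockout libraries lay above db/db, on few counts, but stayed far below the lean level. Of genes tested in KO_db/db versus db/db, 28.4% lay higher without overlap. Mcoln3 did not pass the count filter there and was not tested, though edgeR called it with all 7 libraries in 1 fit (adjusted p = 0.0492). Mcoln3 was also, in KO_db/db versus db/+, the 1 of 7 tested genes of this list that passed, beside 38.4% of all genes tested. Trpc1, a store-operated channel subunit, and Mcoln1, a lysosomal channel, stood at 17.2 to 24.4 CPM and at 15.9 to 25.3 CPM over all libraries and passed in no comparison.

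TRPM5 works in taste cells downstream of taste receptors, the G protein gustducin and inositol trisphosphate receptors. Of 12 genes of that cascade, the gustducin α subunit Gnat3 had 3 counts in 1 lean library and 0 in the other 6, and Plcb2, Gnb3 and the taste receptors Tas1r1 and Tas1r2 had at most 5 counts in any library. The 3 inositol trisphosphate receptors, calcium release channels of the endoplasmic reticulum, were 3 of the 4 with enough counts to be tested. None of the 4 genes tested passed in db/db versus db/+ with all libraries in. With 1 db/db library left, Itpr1 was lower by 0.95 without db/db mouse 2 and Itpr2 higher by 0.75 without db/db mouse 1. All 3 receptors rose in KO_db/db versus db/+, where 20.5% of all genes tested rose and 38.4% changed. Itpr3 stood at 44.3, 42.8 and 48.1 CPM in db/+, 34.7 and 52.8 CPM in db/db, and 138 and 114 CPM in KO_db/db, so that both knockout libraries were well above all the others. It rose by 1.49 versus db/+ (standard error 0.11, adjusted p = 0.000663), and its difference from db/db was 1.52 (0.24, adjusted p = 0.0844), with 1.5e-07 in DESeq2. Without db/db mouse 2, which leaves 1 db/db library, that difference was 1.86. Itpr1 (0.71, adjusted p = 0.0112) and Itpr2 (0.78, 0.0159) rose less versus db/+, and the call of Itpr2 was lost without KO_db/db mouse 2 (0.0913). Acinar cells also use Itpr2 and Itpr3, and the acinar genes were highest in the same 2 libraries. Without KO_db/db mouse 1, the richer of the pair in acinar RNA, the difference of Itpr3 from db/+ was 1.35. KO_db/db mouse 2, the library left, still held 16910 CPM of acinar genes, against 80.98 to 375.2 CPM in db/+. The part of acinar cells in these levels was not tested. The call of Itpr1 was lost when all 7 libraries shared 1 fit (0.120).

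TRPM2 is fed by ADP-ribose, and of 5 genes that make or remove it, Parg, Parp1 and Nudt9 were tested. Parg, which trims poly(ADP-ribose), rose by 0.47 in db/db (standard error 0.11, adjusted p = 0.0147) and by 1.08 in KO_db/db (0.25, 0.0154) versus db/+. Its levels were 20.5 to 21.8 CPM in db/+, 29.7 and 29.1 CPM in db/db, and 58.1 and 30.5 CPM in KO_db/db, so that only KO_db/db mouse 1 stood clear of the diabetic pair. Without it the change versus db/+ was 0.54, and the call in db/db was lost without db/+ mouse 1 (adjusted p = 0.0747) or with all 7 libraries in 1 fit (0.144). Parp1, the main poly(ADP-ribose) polymerase, stood at 25.9 to 34.8 CPM over all libraries and passed in no comparison. The cyclases Cd38 and Bst1 were at or near the floor.

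Npr1 was low in db/db and stood within the lean range in the knockout. It stood at 13.8, 11.2 and 18.3 CPM in the db/+ libraries, at 3.99 and 3.47 CPM in those of db/db, and at 15.8 and 14.5 CPM in the KO_db/db libraries. The knockout libraries lay inside the spread of the lean ones, and both diabetic libraries lay below all 5 others, as they did for 14.7% of genes that passed the filter. The means were 14.4 ± 3.60 CPM (SD, n = 3), 3.73 ± 0.373 CPM (SD, n = 2) and 15.2 ± 0.865 CPM (SD, n = 2), or 25.9% of the lean mean in db/db and 105% in KO_db/db. The log2 fold change was -1.97 (standard error 0.25) in db/db versus db/+, 2.02 (0.19) in KO_db/db versus db/db and 0.08 (0.21) in KO_db/db versus db/+.

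Npr1 is also made by endothelial cells. Its highest level was in db/+ mouse 3, the library in which the endothelial marker Pecam1 stood at 45.3 CPM, against 5.32 to 10.4 CPM in the other 6, and in which 8 endothelial markers summed to 53.3 CPM against 14.3 to 26.1 CPM. In that library the endothelial cadherin Cdh5 had 1 count and the receptor Kdr had 0. Without it the log2 fold change of Npr1 was -1.75 in db/db versus db/+ and 0.29 in KO_db/db versus db/+. The endothelial sum was 17.2 and 15.7 CPM in KO_db/db, below that of both db/db libraries, and the part of endothelial cells in the level of Npr1 was not tested.

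Npr2, the receptor for C-type natriuretic peptide, had another order than Npr1. It stood at 8.31, 8.75 and 6.93 CPM in db/+, at 8.78 and 21.9 CPM in db/db, and at 18.1 and 14.1 CPM in KO_db/db. The db/db pair was split, with mouse 1 level with the highest lean library and mouse 2 the highest of all 7. Npr2 rose by 1.01 in KO_db/db versus db/+ (standard error 0.17, adjusted p = 0.00604, edgeR's quasi-likelihood test), where 20.5% of genes rose, and this call was lost with all 7 libraries in 1 fit (0.0571). In db/db versus db/+ the difference was 0.93 (0.36, adjusted p = 0.0821), and it passed in DESeq2 (0.0385) and with no filter on low counts (0.0166). With 1 db/db library left, it was 1.44 without db/db mouse 1 and 0.12 without db/db mouse 2. The difference between KO_db/db and db/db was 0.06 (0.44, adjusted p = 0.951). Its sign turned without KO_db/db mouse 1 (-0.13) or without db/db mouse 1 (-0.45). Per kb, the level of Npr1 was 1.15 to 2.38 times that of Npr2 within the lean libraries, 0.409 and 0.143 times within the diabetic libraries, and 0.786 and 0.931 times within the knockout libraries. The balance of the receptor pair in the knockout was thus between the other groups although the level of Npr1 alone was at the lean mean.

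The ligands were not measurable here. Nppa and Nppb had 0 counts in all 7 libraries, and Nppc and the clearance receptor Npr3 had at most 4 counts in any. Of the 16 genes of the natriuretic peptide pathway, 9 were tested in db/db versus db/+ with Npr1 left out, and 3 rose and 1 fell, beside 37.8% of all genes called. In KO_db/db versus db/+, 4 of 10 rose and 1 fell, beside 38.4% of all genes called. Pde3a, a phosphodiesterase that degrades cyclic AMP and is inhibited by cyclic GMP, stood at 3.11, 3.39 and 2.81 CPM in db/+, 17.7 and 28.6 CPM in db/db, and 14.4 and 22.6 CPM in KO_db/db, and it rose by 2.89 (standard error 0.24, adjusted p = 0.000673) in db/db and by 2.59 (0.23, 0.000825) in KO_db/db versus db/+. Diabetic and knockout libraries overlapped for this gene.

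Pde3b, its partner and the form known for cyclic AMP control in β-cells, moved the other way. It stood at 131, 123 and 121 CPM in db/+, 58.7 and 79.7 CPM in db/db, and 97.9 and 97.8 CPM in KO_db/db, with no overlap between groups. Of all genes tested, 30.7% lay lower without overlap in db/db versus db/+ and 32.5% in KO_db/db versus db/+. In KO_db/db versus db/db 28.4% lay higher. Pde3b fell by 0.86 in db/db (standard error 0.15, adjusted p = 0.00615) and by 0.34 in KO_db/db (0.09, adjusted p = 0.0210) versus db/+. The second of these calls was lost without KO_db/db mouse 1 (adjusted p = 0.0987) or 2 (0.0682), or without db/+ mouse 1 (0.0765) or 2 (0.0532), and with all 7 libraries in 1 fit (0.0866). The difference between KO_db/db and db/db did not pass (0.50, adjusted p = 0.218). Furin, a proprotein convertase, rose by 1.19 (0.17, adjusted p = 0.00266) in db/db and by 1.32 (0.15, 0.00144) in KO_db/db. Corin, the protease that activates atrial natriuretic peptide, was rare, with 4 to 109 counts. It rose by 2.45 in db/db (0.62, adjusted p = 0.0215), a call lost without either db/db library (0.0545 and 0.0861) or without db/+ mouse 3 (0.0512).

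The phosphodiesterases that degrade cyclic GMP gave weaker results. Pde5a, the target of sildenafil, stood at 139 to 194 CPM in db/+, 136 and 119 CPM in db/db, and 479 and 160 CPM in KO_db/db, so that KO_db/db mouse 1 alone was high. It passed in no comparison with all libraries in and the filter on low counts. Without KO_db/db mouse 2, which leaves 1 knockout library, the differences were 1.91 versus db/db and 1.55 versus db/+. With no filter Pde5a was called in both comparisons (adjusted p = 0.00858 and 0.0205 in edgeR). Pde9a rose by 2.80 in KO_db/db versus db/+ (standard error 0.74, adjusted p = 0.0246) on 1 to 25 counts, a call lost without any 1 of KO_db/db mouse 1 (0.168) or 2 (0.0671) or db/+ mouse 1 (0.0610) or 2 (0.0540). The cyclic GMP-dependent kinase Prkg1 passed in no comparison. Its relative Prkg2 stood at 1.43, 2.74 and 8.62 CPM in db/+, 8.78 and 8.82 CPM in db/db, and 6.82 and 5.78 CPM in KO_db/db, so that db/+ mouse 3 lay with the diabetic libraries. With all libraries in, the differences from db/+ were 1.02 in db/db (adjusted p = 0.249) and 0.56 in KO_db/db (0.530), and without db/+ mouse 3 they were 2.06 (0.00992) and 1.59 (0.0214).

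Among the other guanylyl cyclases, Gucy2c, the receptor for guanylin and uroguanylin, passed in both comparisons with db/+. It stood at 13.8, 18.7 and 23.7 CPM in db/+, 88.2 and 85.7 CPM in db/db, and 66.1 and 68.0 CPM in KO_db/db. It rose by 2.20 (standard error 0.21, adjusted p = 0.000938) in db/db and by 1.84 (0.21, 0.00150) in KO_db/db versus db/+. The knockout libraries lay below the diabetic ones, by 0.38 on the log2 scale, which did not pass the test (adjusted p = 0.182). Gucy1b1, the β subunit of the nitric oxide-sensitive cyclase, rose by 1.28 in KO_db/db versus db/+ (0.30, adjusted p = 0.0162), a call lost without KO_db/db mouse 1 (0.0819) or db/+ mouse 1 (0.0536). The remaining 3 of the 5 cyclases tested, Gucy1a1, Gucy1a2 and Gucy2e, passed in no comparison.

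Ucn3 had the highest level per kb of the 10 genes in every group and the least spread within groups. It stood at 584, 563 and 580 CPM in db/+, at 67.7 and 85.0 CPM in db/db, and at 282 and 249 CPM in KO_db/db. The groups did not overlap, and the knockout libraries lay between the others. Of all genes tested, 30.7% lay lower without overlap in db/db versus db/+, and 32.5% in KO_db/db versus db/+. In KO_db/db versus db/db 28.4% lay higher. The means were 576 ± 11.2 CPM (SD, n = 3), 76.3 ± 12.3 CPM (SD, n = 2) and 265 ± 23.7 CPM (SD, n = 2), or 13.3% of the lean mean in db/db and 46.1% in KO_db/db. The log2 fold change was -2.93 (standard error 0.15) in db/db versus db/+, 1.79 (0.18) in KO_db/db versus db/db and -1.11 (0.13) in KO_db/db versus db/+. Per kb its level was 389 CPM in db/+, above the 117 CPM of Fam151a, the next of the 10. The pooled SD within groups was 0.13 on the log2 scale, against 0.18 to 0.50 for the other 9.

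The peptides of the same family, Crh, Ucn and Ucn2, had at most 2 counts in any library, so Ucn3 was the ligand that could be measured. The type 1 receptor Crhr1 had 97, 40 and 121 counts in db/+, 6 and 6 counts in db/db, and 11 and 16 counts in KO_db/db. It fell by 4.31 in db/db (standard error 0.65, adjusted p = 0.00344) and by 2.92 in KO_db/db (0.58, 0.00952) versus db/+. The calls of Crhr1 held in every refit tried at the 0.05 threshold. The type 2 receptor Crhr2, through which urocortin 3 signals, had 0 to 61 counts. Its difference in db/db versus db/+ was 2.59 (standard error 1.07, adjusted p = 0.0996), and it passed without db/+ mouse 3 (4.42, 0.0286) and with no filter on low counts (2.61, 0.0418).

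Somatostatin, the δ-cell hormone downstream of urocortin 3, was followed as Sst and its receptors. Sst stood at 2272, 727 and 367 CPM in db/+, at 162 and 82.5 CPM in db/db, and at 631 and 500 CPM in KO_db/db. The lean libraries spread over a wide range, and both diabetic libraries lay below all others, as they did for 14.7% of genes that passed the filter. Sst fell by 3.21 in db/db versus db/+ (standard error 0.82, adjusted p = 0.0219), a call lost without db/db mouse 1 (0.0519) or 2 (0.103), and its difference in KO_db/db versus db/db was 2.21 (0.36, adjusted p = 0.0866 in edgeR and 1.95e-10 in DESeq2). Sst marks δ-cells, which a β-cell sort should leave out. The 4 δ-cell markers summed to 381.1 to 2332 CPM in db/+, 168.9 and 87.4 CPM in db/db, and 652.8 and 519.5 CPM in KO_db/db. In db/db versus db/+ 2 of the 4 were lower, where 18.0% of all genes tested fell. The part of δ-cells in these levels was not tested. Of the receptors, Sstr3 stood at 189 to 274 CPM over all libraries and passed in no comparison. Sstr1 had 3, 0 and 0 counts in db/+, 18 and 33 counts in db/db, and 11 and 15 counts in KO_db/db, and it rose in db/db versus db/+ (adjusted p = 0.0349), with no fold given on so few counts. That call was lost without either db/db library (0.0827 and 0.150) or without db/+ mouse 2 (0.0811) or 3 (0.0660).

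**Figure D4:**
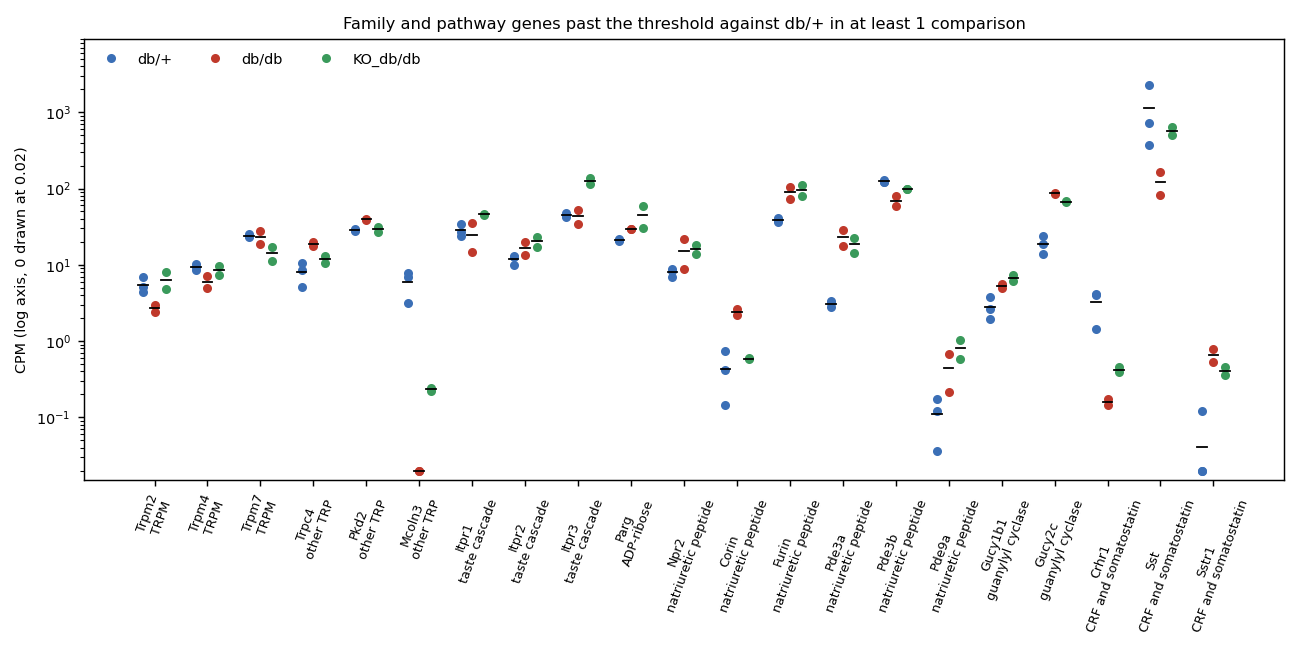
CPM (log axis, 0 drawn at 0.02) of the 21 family and pathway genes that passed the test versus db/+ in db/db or in KO_db/db, with a point for each library and a bar at each group mean. For Pde3a, Furin and Gucy2c the db/db and KO_db/db points lie together above db/+, for Itpr3 the KO_db/db points stand alone, and for Mcoln3, Crhr1 and Sst db/db is lowest.

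Over all 8 lists, with the 5 picked genes left out, 40 genes were tested in each comparison. In db/db versus db/+, 8 rose and 6 fell (35% of 40, beside 37.8% of all genes). Of those tested in KO_db/db versus db/+, 10 rose and 4 fell (35%, beside 38.4%). None passed in edgeR in KO_db/db versus db/db, beside 0.319% of all genes (43 genes, with 2814 at an unadjusted p under 0.05), and DESeq2 called 4, namely Itpr3, Sst, Trpm2 and Corin. The median log2 fold change of the 40 was 0.30, 0.55 and 0.04 in these 3 comparisons, beside 0.00642, -0.00344 and -0.0234 over all genes. The shares called were thus close to those of all genes.

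Tmem215 and Fam151a, a pair of membrane proteins on chromosome 4 at 40472180 to 40477168 and at 106733889 to 106748292, had the order of Trpm5 and Ucn3. Tmem215 stood at 280, 257 and 234 CPM in db/+, 19.9 and 14.8 CPM in db/db, and 104 and 76.8 CPM in KO_db/db. Fam151a stood at 246, 210 and 220 CPM in db/+, 10.5 and 9.08 CPM in db/db, and 129 and 97.9 CPM in KO_db/db. In both genes the knockout libraries lay between the others without overlap. Over all genes tested, 28.4% lay higher without overlap in KO_db/db versus db/db and 32.5% lower in KO_db/db versus db/+. In db/db the mean was 6.75% of the lean mean for Tmem215 and 4.36% for Fam151a, and in KO_db/db it was 35.1% and 50.3%. The log2 fold changes in db/db versus db/+ were -3.90 (standard error 0.18) and -4.53 (0.15), and in KO_db/db versus db/db they were 2.38 (0.23) and 3.53 (0.20). Fam151b, the other member of its family, stood at 2.32 to 4.38 CPM and passed in no comparison (-0.66 in db/db versus db/+, adjusted p = 0.0885).

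Set side by side, the 5 picked genes differed in how near the knockout came to the lean level. In KO_db/db the mean was 20.5% of the lean mean for Trpm5, 35.1% for Tmem215, 46.1% for Ucn3, 50.3% for Fam151a and 105% for Npr1. The order in db/db was another one, at 1.44% for Trpm5, 4.36% for Fam151a, 6.75% for Tmem215, 13.3% for Ucn3 and 25.9% for Npr1. Ucn3 and Fam151a were neighbours in the first order that did not differ beyond the spread of the KO_db/db libraries. The comparisons share their db/db and their lean libraries, so their fold changes are not independent of each other. In CPM after TMM scaling, all 5 genes were higher in KO_db/db mouse 1, which held more acinar RNA, than in mouse 2. This order depended on the scaling. As a share of raw counts, Ucn3 was lower in mouse 1 (6868 of 27496645) than in mouse 2 (10236 of 35852785). So was Npr1 (384 against 599 counts), while Trpm5, Tmem215 and Fam151a stayed higher. Without mouse 1 the differences from db/db were 3.47 for Trpm5, 1.96 for Npr1, 1.70 for Ucn3, 2.15 for Tmem215 and 3.32 for Fam151a on the log2 scale. Scaling without the acinar and Reg genes gave 3.84, 2.02, 1.80, 2.38 and 3.53.

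Being below every library of both other groups is not rare in db/db. It held for 14.7% of the 13789 genes that passed the filter over the 3 groups. Among the relatives it held for Trpm2, Trpm3 and Trpm4 and not for Trpm7 and Npr2.

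The genes of the most similar profile were sought for Trpm5, Npr1 and Ucn3 among 9355 genes, by the root mean square difference of log2 CPM over the 7 libraries after each gene was centred on its own mean. For Trpm5 they were Fam151a (0.737), Tmsb15b2 (0.782), Cdh7 (0.812), Tmem215 (0.919) and Msln (0.927), a surface protein of mesothelium, so that the list already held 2 of the 5. Tmsb15b2, a thymosin, has a near-identical copy and its counts are uncertain. Cdh7, a cadherin, stood at 17.3 ± 2.70 CPM (SD, n = 3) in db/+, 0.719 ± 0.104 CPM (SD, n = 2) in db/db and 3.02 ± 0.0899 CPM (SD, n = 2) in KO_db/db. No gene came closer to Trpm5 than 0.737 on this scale, whereas the nearest to Npr1 and Ucn3 stood at 0.247 and 0.148.

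The profile of Npr1 was shared most closely by Papss2 (0.247), which makes the sulfate donor of the cell, Ift172 (0.275), a protein of ciliary transport, Robo2 (0.283), a Slit receptor, Spock1 (0.304), a proteoglycan, and Atf6b (0.314), a relative of the stress sensor ATF6. Papss2 stood at 663 ± 11.2 CPM (SD, n = 3) in db/+, 201 ± 4.30 CPM (SD, n = 2) in db/db and 608 ± 6.995 CPM (SD, n = 2) in KO_db/db. For Ucn3 the list was Oxct1 (0.148), the enzyme that lets cells use ketone bodies, Maob (0.243), a monoamine oxidase, H2bc21 (0.255), a histone, Ppp1r1a (0.262), an inhibitor of protein phosphatase 1, and Sfrp5 (0.285), a secreted modulator of Wnt signals. Oxct1 stood at 96.4 ± 5.45 CPM (SD, n = 3) in db/+, 11.2 ± 0.135 CPM (SD, n = 2) in db/db and 44.4 ± 10.2 CPM (SD, n = 2) in KO_db/db, and Maob at 203 ± 4.76, 35.4 ± 3.81 and 102.8 ± 9.35 CPM. Tmem215 and Fam151a were nearer to each other (0.437) than either was to Trpm5 (0.919 and 0.737). The profiles are described over 7 libraries in 3 groups that share their scaling, and likeness is no test.

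**Figure D5:**
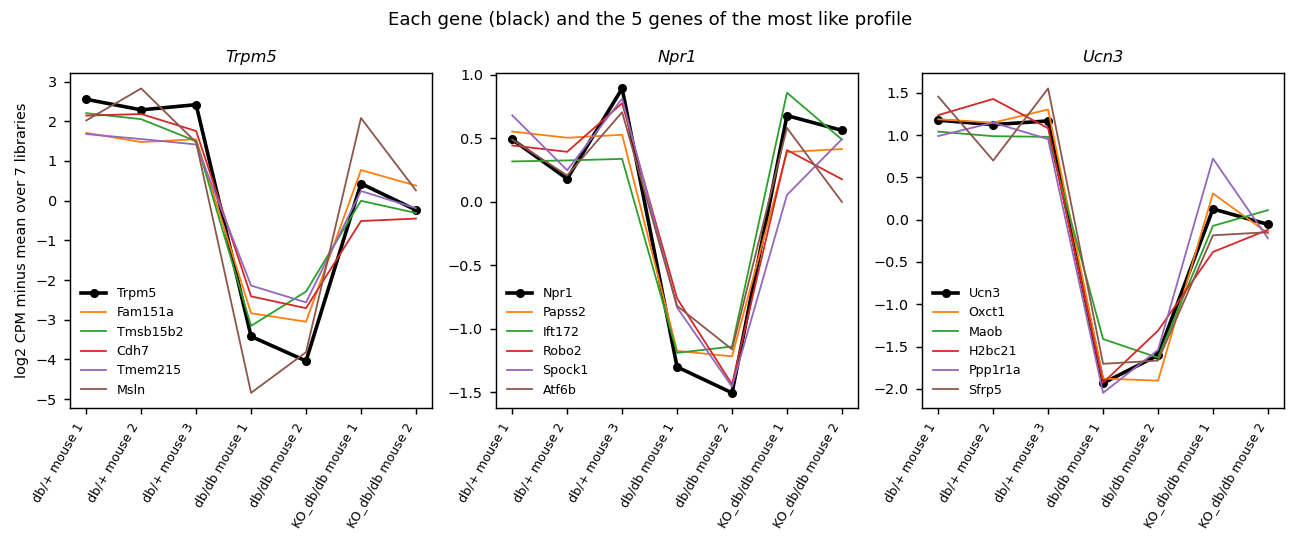
Log2 CPM minus the gene's mean over the 7 libraries, for Trpm5, Npr1 and Ucn3 (black, 1 panel each) and the 5 genes of the most similar profile (coloured), with lines that only join the libraries named on the x axis. Trpm5, the gene of the widest range, lies further from its neighbours (0.737 to 0.927) than Npr1 (0.247 to 0.314) and Ucn3 (0.148 to 0.285), on a measure not scaled to range.

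Some of these genes overlap others, and whether the counting used strand is not given in the sources used here. Trpm5 shares 1845 bases with Tssc4 and Fam151a shares 3738 bases with Acot11, each on the opposite strand, while Npr1, Npr2 and Trpm3 overlap noncoding transcripts and Ucn3 and Tmem215 overlap none. Tssc4 stood at 90.6 ± 11.6 CPM (SD, n = 3) in db/+, 35.2 ± 6.15 CPM (SD, n = 2) in db/db and 72.1 ± 4.05 CPM (SD, n = 2) in KO_db/db, in the same order as Trpm5 but over a far smaller range, and it fell by 1.38 in db/db versus db/+ (standard error 0.17, adjusted p = 0.00173). Acot11 stood at 12.3, 19.0 and 17.2 CPM (means, in the same order), which is not the order of Fam151a.

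The tested genes next to Trpm5 were looked at after its own values had been seen. Cd81, 1.2 kb away, had log2 fold changes of 0.10 in db/db versus db/+ (adjusted p = 0.725) and -0.10 in KO_db/db versus db/db (0.723). Kcnq1, a potassium channel gene 11.7 kb to the other side, stood at 1.92, 1.28 and 1.32 CPM in db/+, 0.0294 and 0.167 CPM in db/db, and 5.26 and 0.753 CPM in KO_db/db. It fell by 3.84 in db/db versus db/+ (standard error 0.76, adjusted p = 0.00898). The difference of 4.81 in KO_db/db versus db/db did not pass (1.26, adjusted p = 0.144), although it did in DESeq2 (0.000531), with no filter (0.00113) and with all 7 libraries in 1 fit (0.0446). With 1 knockout library left, that difference was 5.63 without KO_db/db mouse 2 and 2.86 without KO_db/db mouse 1. In KO_db/db versus db/+ the difference of 0.98 (adjusted p = 0.323) turned to -0.99 without KO_db/db mouse 1 and was 1.80 without KO_db/db mouse 2. Kcnq1 was high in the library rich in acinar RNA, and the part of acinar cells in its level was not tested.

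Trpm5 is also a marker of tuft cells, which the pancreatic duct can hold. Of the tuft cell markers, the defining factor Pou2f3 and Sh2d6 had 0 counts in all 7 libraries and Il25 and Gnat3 in 6. The summed level of the list was 5.90 to 8.10 CPM in db/+, where Trpm5 was above 115 CPM, and 11.0 and 20.2 CPM in db/db, where it was lowest. It was made up mostly of Dclk1 and Alox5ap, and Dclk1 was highest in db/db (8.54 and 16.6 CPM). Markers of macrophages summed to 32.8 to 57.0 CPM in db/+, 56.0 to 73.9 CPM in db/db and 21.7 to 33.6 CPM in KO_db/db. Nearly all of this was C1qa, at 20.9 to 71.3 CPM over all libraries, while the other markers, among them Cd68, C1qb and Ptprc, were at most 1.56 CPM. Stellate markers summed to under 5 CPM everywhere. The lists of the remaining islet and exocrine types summed, in db/+, db/db and KO_db/db, to 1068 to 1700, 2086 to 2528 and 1181 to 1654 CPM for α-cells, 151.3 to 560.4, 347.1 to 609.1 and 677.3 to 910.1 CPM for PP cells, 185.6 to 202.1, 290.1 to 431.8 and 281.8 to 345.8 CPM for duct, and 1.07 to 7.92, 7.72 to 8.96 and 338.5 to 3040 CPM for the Reg genes, which acinar cells under stress express. The α-cell sum was highest in db/db through Ttr (1908 and 1717 CPM, against 504 to 679 CPM elsewhere), whereas the hormone gene Gcg stood at 603 and 349 CPM in db/db, 381 to 1182 CPM in db/+ and 1026 and 619 CPM in KO_db/db. For the Reg genes, the paper also reports higher expression in sorted knockout β-cells by qPCR, and REG1 and REG2 staining in knockout islets. The part of the cell types listed here in the levels above was not tested.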

How the data were processed

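RNA of sorted β-cells was sequenced from 7 mice after poly-A selection, 1 library per mouse, on GRCm38. The authors deposited 1 table of estimated counts per gene symbol, already rounded to whole numbers. Per the submitters' processing notes, bcl2fastq 2.19 and kallisto 0.44.0 made them. The annotation release, the use of strand and the gate of the sort are not given in the sources used here. Counts of multigene families may be split among near-identical copies. Libraries held 27496645 to 35852785 counts, and the precision of a level depends on the counts of the gene and on the spread between libraries. Nothing says that libraries of a group were prepared independently. The p-values set a difference between groups against the spread between these libraries.

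From the table, edgeR 4.0.16 (R 4.3.3) fitted each pair of groups (TMM scaling, minimum count 10, quasi-likelihood test, Benjamini-Hochberg adjustment over all genes tested, threshold 0.05), and standard errors were the log2 fold change divided by the root of F. CPM used TMM over all 7 libraries, and likeness used log2 CPM with a prior count of 2 for genes with a mean of 5 CPM or more. Simulated data, with 200 genes given an absolute log2 fold change of 2, served to test each fit. The KO_db/db versus db/db fit recovered 149 of these genes and called 29 others. The fit of db/db versus db/+ recovered 157 and called 9 others, and that of KO_db/db versus db/+ recovered 159 and called 15 others. Each fit thus missed some changed genes and called some that were not changed. Alternatives were RLE scaling, scaling without acinar and Reg genes, DESeq2 1.42.0 (the tool named in the study's methods), no filter, 1 fit for all 7 libraries, a replicate block, a threshold of 0.01 and each library left out. The 10 genes, the 8 gene lists (87 symbols, 85 in the table), the marker lists and the tests were chosen with earlier results of these data known. Besides the 10 genes, those named are the listed genes past the threshold (up to 6 per list and comparison), the 3 most abundant of each list, and the 5 most similar to Trpm5, Npr1 and Ucn3. Others named for their absence, overlap or position were chosen after their values were seen. Promoter windows were taken from RefSeq (GRCm38.p6), with a window for 9 of the 10 genes and none for Trpm4. Gene positions matched 34222 of the 35013 symbols.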

Additional observations from a re-analysis of the deposited data

How the results depend on the processing

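The number of genes called in KO_db/db versus db/db, 43 by edgeR, depended on the processing. It was 1371 in DESeq2, 1570 with no filter on low counts, 818 with all 7 libraries in 1 fit, 22 with the replicate block and 0 at a threshold of 0.01 (where 2814 genes had an unadjusted p under 0.05), and 0 to 225 with 1 library left out. Among the family and pathway genes none was called there by edgeR, 4 by DESeq2, 6 with no filter, 2 with all 7 libraries in 1 fit and 0 to 2 with 1 library left out. In db/db versus db/+ the 5069 genes called became 2479 at 0.01 and 3331 to 4394 with 1 library left out, and the 14 family and pathway genes became 6 and 10 to 14. In KO_db/db versus db/+ the 5081 genes became 2394 and 3060 to 4725, and the 14 became 7 and 10 to 15. A group left with 1 library was taken to vary like the other. The cause of these shifts was not tested.

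None of the 5 picked genes changed direction in any refit where its groups did not overlap. Such groups keep their direction when a library is left out, and the genes were picked for these differences, so this is no test. Between KO_db/db and db/db the log2 difference ranged from 3.46 to 4.17 for Trpm5, 1.92 to 2.12 for Npr1, 1.64 to 1.97 for Ucn3, 2.15 to 2.602 for Tmem215 and 3.32 to 3.71 for Fam151a. Npr1 in KO_db/db versus db/+, where the groups overlap, ranged from -0.08 to 0.29. Some signs turned among differences that did not pass the test. With 1 library left out, the values ranged from -0.45 to 0.87 for Npr2 in KO_db/db versus db/db (negative without KO_db/db mouse 1, at -0.13, or db/db mouse 1), and from -0.39 to 0.18 for Trpm7 in db/db versus db/+ (positive without db/db mouse 2). In KO_db/db versus db/+ they ranged from -0.21 to 0.55 for Trpm2, -0.24 to 0.11 for Trpm3 and -0.33 to 0.043 for Trpm4 (each turned without KO_db/db mouse 2, Trpm3 at 0.09 there and 0.11 without db/+ mouse 3), and from -0.99 to 1.80 for Kcnq1 (turned without KO_db/db mouse 1). Trpm3 was 0.12 with the replicate block.

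The groups share mouse numbers in the labels, but nothing says that a number marks a shared litter or day, and deviations of same-numbered libraries correlated at -0.0588 in KO_db/db and db/db, 0.0584 and 0.0759 in db/db and db/+, and -0.0782 and -0.102 in KO_db/db and db/+. With the replicate block, adjusted p rose past 0.05 for Trpm2 (0.0554), Parg (0.0647) and Sstr1 (0.104) in db/db versus db/+, and for Trpm7 (0.0547), Parg (0.0599), Pde3b (0.0606), Pde9a (0.0521) and Gucy1b1 (0.0557) in KO_db/db versus db/+, while Crhr2 (4.57, 0.0190) and Prkg2 (2.12, 0.00437) were gained in db/db versus db/+ and Prkg2 (1.63, 0.0379) in KO_db/db versus db/+. Likeness with a prior count of 0.5 put Cox6a2 in place of Msln beside Trpm5. Depth limits what can be said of genes at or under 3 counts, such as the natriuretic peptide ligands.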
